A study of Mus musculus with 29 samples.

Results

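The 10 genes Acta2, Actg2, Cnn1, Myh11, Tagln, Des, Myl9, Lmod1, Synm and Mylk, which encode the contractile and structural proteins of smooth muscle and myofibroblasts, were followed through bladder libraries from mice with and without an activated Pparg. They were chosen by symbol as 10 of the 35199 genes listed for the 4-day libraries, with their levels in these same comparisons already known, so that their values in the comparisons of controls with mutants, of luminal with basal tumors and of the domains of mixed lesions are a description and carry no test. The comparison of luminal tumors with luminal domains was not itself used in choosing them, but both groups were, each against basal tumors, so that a test there is not fully independent of the choice. All 10 genes were listed in every table, and the filter on low values, at least 10 normalized counts in as many libraries as the smaller group holds, left 9 of the 10 at 4 days, 10 in both comparisons with basal tumors and 8 in the comparison of the domains.

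The series holds 29 samples, and 21 of its libraries are described here. The mutants, K5VP16;Pparg+/- in the labels, carry a VP16;Pparg fusion with an EGFP reporter at Rosa26, which becomes active where a Krt5-driven, tamoxifen-dependent Cre removes a stop sequence. Pparg is a nuclear receptor that favours luminal differentiation of the urothelium, and VP16 makes it active without ligand. Controls are given as wild type in the labels. For the sorted cells, however, the methods of the study describe K5;mTmG controls and K5VP16;Pparg;mTmG mutants. In both, the same Cre switches on the Gfp of mTmG. Adult mice were induced with tamoxifen, and 4 days later, without carcinogen, Gfp-positive cells were sorted from 4 controls and 5 mutants. Krt5 is a keratin of basal cells, so that Cre acts in them and in what they give rise to. The tumors came from mice that drank 0.05% BBN, a bladder carcinogen, for 5 months, and were collected at 4 months after induction by laser capture from frozen sections. They comprise 3 basal tumors of controls, wild type in the labels and VP16;Pparg fl/fl or K5;mTmG in the study, and, from K5VP16;Pparg+/- mice, 3 luminal tumors and, from lesions of mixed histology, 3 luminal domains of the upper part and 3 basal-like domains of the lower part. The other 8 columns, from untreated mice and mice given BBN for 1 month, are not analysed here because their names could not be tied to samples. Libraries are named by their group and by the CT number of their column. The labels do not say whether libraries of 1 group came from separate animals, or whether a luminal and a basal-like domain came from the same lesion, so that SE and p measure the spread between these libraries only.

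Smooth muscle shortens when calcium and calmodulin activate myosin light chain kinase, which phosphorylates the regulatory light chain and lets the smooth muscle myosin heavy chain pull on filaments of smooth muscle actin. Calponin, transgelin and leiomodin bind those actin filaments, and desmin and synemin form the intermediate filaments that tie them to the cell. In the bladder these genes mark the detrusor, the muscle of vessels and, for some of them, myofibroblasts, and many are switched on by serum response factor (SRF) with cofactors of the myocardin family, through a DNA element called the CArG box.

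The stretch from 250 bases before to 50 after the start of transcription was taken from RefSeq (build GRCm38.p6), with the start that its table gives for each gene, and was found for 7 of the 10 genes, the other three being Actg2, Myh11 and Tagln. A CArG box that fits at every position stood in 1 of these 7 stretches (14.3%) and in 535 of 32851 stretches of all genes (1.63%). With up to 1 position off, 4 of the 7 (57.1%) and 6936 of the 32851 (21.1%) held a box. The box reads the same on both strands, so that 1 scan covered both. Acta2, Lmod1 and Myl9, 3 genes of the list that stood low in luminal tumors, held 2 boxes each and are printed 5′ to 3′ in the direction of transcription with the boxes in capitals. They lie at chr19:34255324-34255623, minus strand for Acta2, chr1:135324563-135324862, plus strand for Lmod1 and chr2:156775214-156775513, plus strand for Myl9.
Acta2: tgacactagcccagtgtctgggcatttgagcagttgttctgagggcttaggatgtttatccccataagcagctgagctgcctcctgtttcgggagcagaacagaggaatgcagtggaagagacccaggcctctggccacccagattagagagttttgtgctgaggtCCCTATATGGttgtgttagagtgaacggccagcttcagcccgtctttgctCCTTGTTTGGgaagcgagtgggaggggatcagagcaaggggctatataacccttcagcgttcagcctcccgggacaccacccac
Lmod1: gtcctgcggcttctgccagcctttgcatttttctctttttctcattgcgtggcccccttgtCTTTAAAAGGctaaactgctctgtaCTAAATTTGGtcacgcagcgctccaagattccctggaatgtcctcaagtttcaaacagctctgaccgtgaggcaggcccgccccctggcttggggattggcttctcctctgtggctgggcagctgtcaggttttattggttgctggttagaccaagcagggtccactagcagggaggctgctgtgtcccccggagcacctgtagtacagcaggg
Myl9: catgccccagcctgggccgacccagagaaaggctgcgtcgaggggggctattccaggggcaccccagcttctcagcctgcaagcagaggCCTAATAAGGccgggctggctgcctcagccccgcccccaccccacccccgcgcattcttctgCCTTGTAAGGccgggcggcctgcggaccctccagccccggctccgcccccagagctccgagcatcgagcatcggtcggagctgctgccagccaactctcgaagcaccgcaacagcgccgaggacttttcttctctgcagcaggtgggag
The first bases of the boxes lie 84 and 34 bases before the start in Acta2, 189 and 164 in Lmod1, and 161 and 99 in Myl9. The box of Myl9 at 161 bases fits at every position and the others have 1 position off. Synm held 1 box with 1 position off, 239 bases before its start, and Cnn1, Des and Mylk held none in this window. The window of Mylk (chr16:34784700-34784999, plus strand) lies at a start inside the gene, downstream of the first position of the gene span given below. The start used for Acta2 also lies inside its gene span, and both of its boxes lie within that span. Those used for Cnn1, Lmod1 and Myl9 lie inside theirs by fewer bases. The distances of boxes therefore hold for the starts used only. Such a match describes the letters only.

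Total normalized counts were 36520193 to 41435665 at 4 days and, in the tumor table, 41697178 to 44654343 in basal tumors, 51007932 to 53252995 in luminal tumors and 43948808 to 49037860 in luminal domains. The number of genes at 10 or more was 15716 to 16579 at 4 days and 13513 to 13796 in luminal tumors against 14584 to 15042 in basal tumors. The summed normalized count of 7 epithelial genes was 417993 to 534840 in controls and 429929 to 893377 in mutants at 4 days, and 123564 to 329707 in basal tumors, 524995 to 718571 in luminal tumors and 742796 to 775170 in luminal domains, so that epithelium was present in every library. In a given library of the tumor table, 2 to 12 genes with a mean of 1000 or more were listed at 0, against 0 to 1 at 4 days, and a single 0 for a gene therefore does not show that it was silent.

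At 4 days the first question was whether sorted cells with active Pparg already differed in contractile genes. Normalized counts of the 9 genes that passed the filter averaged higher in mutants in all 9, with a median log2 difference of 1.41 against 0.00 over all genes tested. The 4 genes whose mutant libraries all lay above all controls were Actg2, Myh11, Des and Mylk, in a fit in which 4.67% of all genes tested stood apart in that way. Differences are on the scale of log2(normalized count + 1), mutant minus control, and fewer cells of a type and less RNA per cell cannot be told apart in such bulk samples. Control values are given in the order CT063, CT065, CT066 and CT067, and mutant values in the order CT070, CT071, CT074, CT076 and CT078.

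Acta2 (chr19:34241090-34255590, minus strand, GRCm38), smooth muscle alpha-actin of the thin filament, had normalized counts of 39.9, 36.5, 31.1 and 769 in controls and 1814, 119, 472, 229.8 and 176 in mutants. Control CT067 lay above 4 of the 5 mutants, and the groups overlapped. The log2 difference was 2.09 (SE 1.05), and it was 3.19 without control CT067 and 1.48 without mutant CT070. In a second deposited table of 3 against 3 libraries it was 1.15. Actg2 (chr6:83512905-83536265, minus strand), the gamma-actin of visceral muscle, had 3.80, 18.7, 7.98 and 13.5 in controls and 40.8, 27.9, 28.7, 48.0 and 83.5 in mutants. Its groups did not overlap, its highest mutant was CT078 rather than CT070, and the difference was 2.03 (SE 0.49). Myh11 (chr16:14194535-14291372, minus strand), the myosin heavy chain of mature smooth muscle, had 20.5, 24.8, 21.0 and 8.68 in controls and 107, 25.0, 39.3, 36.9 and 67.8 in mutants. The highest control and the lowest mutant nearly touched, and the difference was 1.41 (SE 0.47).

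Myl9 (chr2:156775420-156781658, plus strand), the regulatory light chain, had 15.8, 20.9, 21.5 and 179 in controls and 280.0, 25.3, 111, 51.4 and 64.8 in mutants. Like Acta2, it was far higher in CT067 than in the other controls and in CT070 than in the other mutants, and the groups overlapped. The difference was 1.16 (SE 0.82), or 1.94 without CT067 and 0.69 without CT070. Mylk (chr16:34745210-35002420, plus strand), the kinase of that light chain, had 615, 607, 632 and 573 in controls and 759.9, 717, 959, 671 and 996 in mutants. All mutants lay above all controls by little, with a difference of 0.42 (SE 0.14). Mylk also has a long non-muscle form, and the summed gene values do not separate the forms.

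Tagln (chr9:45929619-45936058, minus strand), transgelin or SM22, had 78.8, 90.6, 84.6 and 166 in controls and 505, 117, 184, 110.0 and 158 in mutants. CT067 and CT070 again stood above the rest of their groups, and the difference of 0.84 (SE 0.45) was 1.08 without CT067 and 0.47 without CT070. Cnn1 (chr9:22099216-22109630, plus strand), calponin 1, had 22.5, 26.0, 8.43 and 10.5 in controls and 35.3, 18.0, 41.3, 74.2 and 83.2 in mutants, which overlapped through mutant CT071, with a difference of 1.47 (SE 0.51). Lmod1 (chr1:135324807-135368065, plus strand), which nucleates actin filaments, was listed at 0, 0, 2.65 and 3.87 in controls and 5.30, 5.79, 0, 2.16 and 15.3 in mutants and was too low to pass the filter.

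Des (chr1:75360329-75368579, plus strand), desmin, had 26.3, 69.9, 20.7 and 73.9 in controls and 217, 103, 594, 146 and 275 in mutants. Every mutant lay above every control, and the difference of 2.40 (SE 0.56) was the largest of the 9. Synm (chr7:67730160-67759742, minus strand), synemin, had 109, 227, 219 and 203 in controls and 292, 190.1, 366, 469 and 88.2 in mutants. Mutant CT078, the highest for Actg2 and Cnn1, was the lowest for Synm, and the difference was 0.41 (SE 0.46), which turned to -0.23 in a second deposited table of 3 against 3 libraries.

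**Figure D1:**
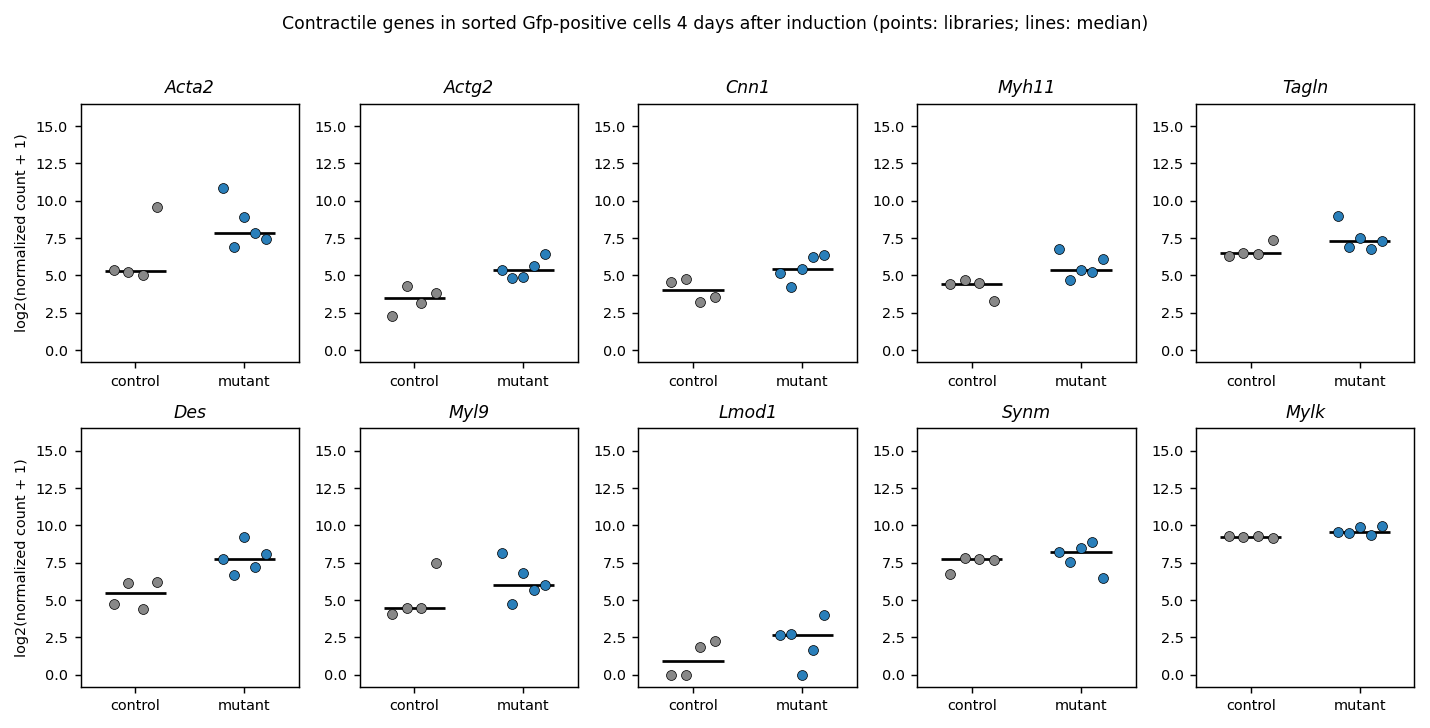
Normalized counts of the 10 genes in sorted cells at 4 days, as log2(normalized count + 1) on the vertical axis, for 4 control and 5 mutant libraries (points) with the median of each group (lines). For Actg2, Myh11, Des and Mylk all mutant points lie above all control points, while 1 control point of Acta2, at a normalized count of 769, lies among the mutants.

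By limma with Benjamini-Hochberg adjustment at 0.05, the rule for a call used throughout, 0 of the 9 were called higher, against 1.77% of all genes tested (290 of 16413). Of the 9, 5 had an unadjusted p under 0.05, as had 20.8% of all genes tested (3418 of 16413), and 0 were called without the trend of the variance. Without mutant CT071 Des was called. Leaving out any 1 library kept the median of the 9 between 1.13 and 1.65.

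Markers of other cells differed in the same libraries. The 10 fibroblast genes summed to 12678 to 89630 normalized counts in controls, the highest in CT067, and to 32068 to 225261 in mutants, and 8 of the 9 tested were higher in mutants, of which Lum was called, a call that held in 3 of 9 fits that left out 1 library and was lost without the trend and in a second deposited table of 3 against 3 libraries. The 8 pericyte genes summed to 2219 to 3324 in controls and 3373 to 5295 in mutants, with 7 of 7 tested higher and 0 called, 2 of them at an unadjusted p under 0.05 and 0 without the trend, whereas the 8 endothelial genes summed to 370 to 1207 and 328 to 1379. Of the 7 epithelial genes 5 were higher and 2 lower in mutants, and Epcam was called lower, at 12095 to 12922 in controls and 5901 to 9405 in mutants, a call that was lost without CT065, CT066 or CT067 and in the smaller table. The Y-linked gene Eif2s3y was at 8.68 to 21.3 in the 5 mutants and 33.3 in control CT063, but at 3282 to 3588 in the other controls. In CT063, 7 of the 9 contractile genes tested lay below every mutant, all but Cnn1 and Synm, as did 19.3% of all genes tested (3175 of 16413). The members were chosen for their level in mutants, so nothing is read from that count. The part that these other cells, and the sex of the mice, play in the values of the contractile genes was not tested.

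Other genes of the smooth muscle program were followed in the same libraries. Of 29 listed, 24 passed the filter, 17 higher and 7 lower in mutants, with a median log2 difference of 0.41. The 1 gene called was Tpm2, a tropomyosin of the thin filament, which rose from 1148, 919.9, 1462 and 1644 in controls to 5635, 3524, 3934, 4009 and 4922 in mutants, a log2 difference of 1.78 (SE 0.19) with an adjusted p of 0.00171 by limma. Every mutant lay above every control, and the call held without any 1 library. Of 7 genes of SRF and its partners none was called, 1 had an unadjusted p under 0.05 and 0 were called without the trend. The genes with the widest differences were Fhl2, an SRF target and cofactor, at 1.83 to 8.98 in controls and 14.6 to 175 in mutants, and Mrtfb, a myocardin relative, at a log2 difference of -0.24 (SE 0.18). Fhl2 passed the filter through the mutants alone. Of 12 non-muscle relatives, mostly actins, myosins and actin-binding proteins of cells in general, with vimentin (Vim) of mesenchymal cells among them, 10 were higher with a median of 0.13. Tagln2, the relative of transgelin, was called and rose by a log2 difference of 0.87 (SE 0.16), adjusted p 0.0260 by limma, but lost the call without CT065, CT066, CT067 or CT074, without the trend, and in the smaller table of 3 against 3 libraries.

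In tumors the question was whether basal tumors of control mice and luminal tumors of mutants differed in these genes. All 10 averaged lower in luminal than in basal tumors, and in 8 of them every luminal tumor lay below every basal tumor, in a fit in which 11.4% of all genes tested did so. Of these 8, Cnn1, Des and Lmod1 were at or near 0 in luminal tumors, and Actg2 was above 10 normalized counts only in CT140. These genes passed the filter through other groups and could stand apart in that direction only, so nothing is read from the count of 8. Synm and Mylk overlapped. The median log2 difference, luminal minus basal, was -6.30, or -5.97 over the 8 genes that were not at 0 throughout luminal tumors, against -0.14 over all genes tested. Basal tumor values are given in the order CT111, CT113 and CT115, luminal tumor values in the order CT126, CT132 and CT140, and luminal domain values in the order CT128 and CT143, the 2 domains held by that table.

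Acta2 had 12596, 4283 and 39870.5 normalized counts in basal tumors, 202, 11.6 and 1017 in luminal tumors and 1081 and 914 in luminal domains. Luminal tumors spread widely, with CT132 nearly without Acta2 and CT140 at the level of the luminal domains, and their difference from basal tumors was -6.55 (SE 1.38). Actg2 had 9848, 147 and 1201 in basal tumors, 2.18, 0 and 24.9 in luminal tumors and 0 and 29.6 in luminal domains. It was at 29.6 or less in the 5 mutant libraries of this table, and the difference was -8.11 (SE 2.03). Myh11 had 2110.2, 140.2 and 156 in basal tumors, 12.1, 0 and 11.3 in luminal tumors and 176 and 5.30 in luminal domains. Basal tumor CT111 stood far above the other libraries, luminal domain CT128 reached the level of CT113 and CT115, and the difference of luminal tumors was -6.05 (SE 1.82).

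The light chain Myl9 had 4327, 1094 and 7480.3 in basal tumors, 114, 4.62 and 264 in luminal tumors and 206 and 495 in luminal domains. It kept the order of Acta2 within basal tumors, CT115 over CT111 over CT113, with a difference of -5.89 (SE 1.35). Its kinase gene Mylk had 2104, 739 and 307 in basal tumors, 66.1, 1641 and 116 in luminal tumors and 1041 and 346 in luminal domains. Luminal tumor CT132, the lowest of all 8 libraries for Acta2, Myh11 and Myl9, held a Mylk value exceeded only by basal tumor CT111, and the difference was -1.74 (SE 1.20). It ranged from -3.14 to -0.84 with 1 library left out.

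Tagln had 17581, 1265 and 5314 in basal tumors, 19.2, 138 and 201 in luminal tumors and 258 and 351 in luminal domains, and the lowest basal tumor lay above the highest of the 5 mutant libraries of this table. Its difference was -5.89 (SE 1.09), the smallest SE of the 10. Cnn1 had 4705, 46.2 and 1714 in basal tumors and 3.70, 0 and 0 in luminal tumors, and was listed at 0 in both luminal domains. The difference between tumors, -8.76 (SE 1.81), is taken against luminal tumors at or near 0, of which a single one was above 0. It ranged from -10.73 to -7.41 with 1 library left out. Lmod1 had 257, 150.3 and 66.4 in basal tumors, was listed at 0 in all 3 luminal tumors and stood at 84.0 and 15.0 in luminal domains, and no fold is given against tumors at 0.

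Des had 4368, 129 and 0.778 in basal tumors and 261 and 0 in luminal domains and was listed at 0 in all 3 luminal tumors. In basal tumor CT115, where Acta2 was highest, Des was nearly at 0. Synm had 324, 116 and 247 in basal tumors, 104, 7.24 and 251 in luminal tumors and 697 and 62.1 in luminal domains. Its highest value fell in luminal domain CT128 and its groups overlapped, with a difference of luminal from basal tumors of -1.81 (SE 1.45). With 1 library left out that difference ranged from -2.84 to -0.38.

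**Figure D2:**
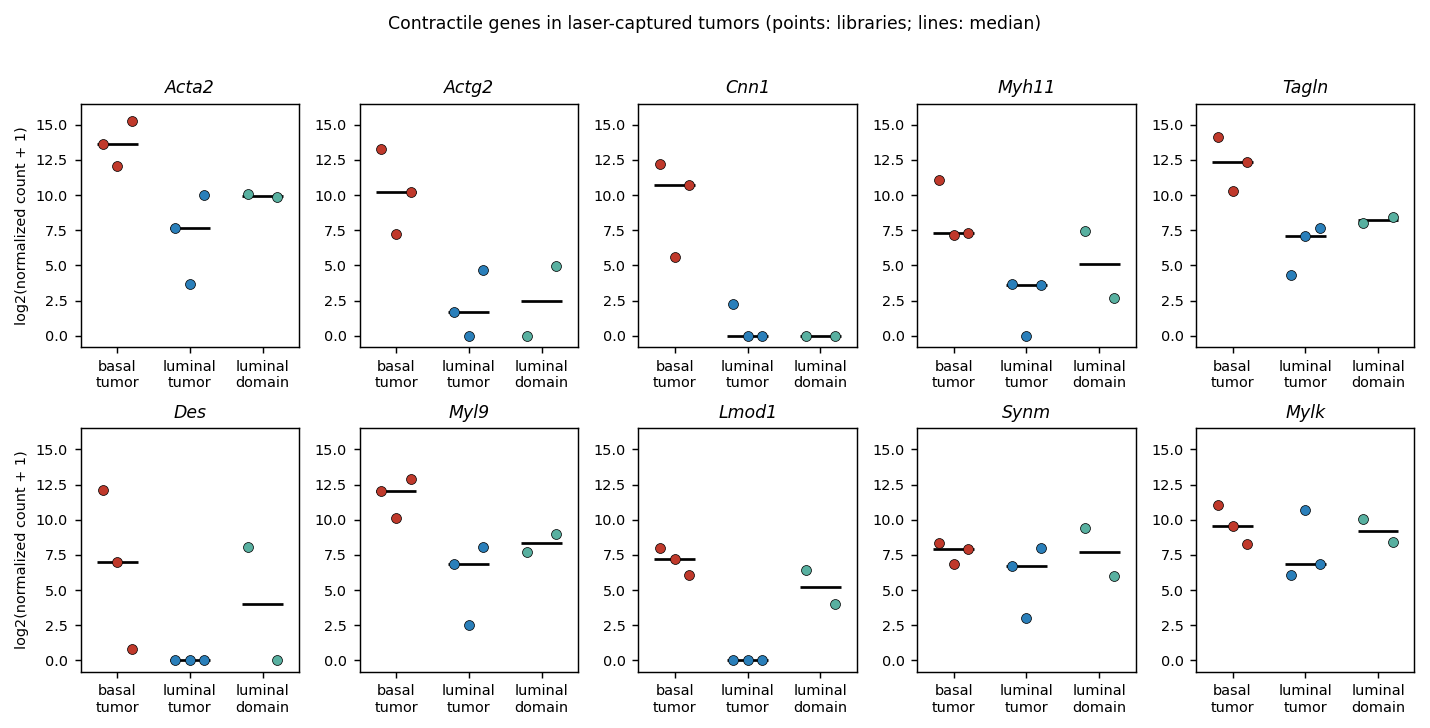
Normalized counts of the 10 genes in laser-captured tissue, as log2(normalized count + 1) on the vertical axis, for 3 basal tumors, 3 luminal tumors and 2 luminal domains (points) with the median of each group (lines). Every luminal tumor lies below every basal tumor except for Synm and Mylk, and Des and Lmod1 lie at 0 in all 3 luminal tumors.

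Of the 10, 3 were called lower in luminal tumors by limma (Cnn1, Tagln and Lmod1), where 0.715% of all genes tested were (119 of 16640). Cnn1, Lmod1 and Des were at or near 0 in luminal tumors and passed the filter only through other groups, so that they could differ in 1 direction only, and the count of calls is no support for a difference of the list. The number of calls also depended on single libraries. It was 0 without CT111, CT115, CT126, CT128, CT132 or CT143, 2 without CT113 and 5 without CT140, whereas all differences kept their direction.

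Markers of other tissue differed between the same libraries. The 10 fibroblast genes summed to 48601 to 76252 normalized counts in basal tumors, 252 to 18255 in luminal tumors and 5469 to 30296 in luminal domains. All 9 tested were lower in luminal than in basal tumors, with a median of -5.26, and Col1a1, Postn and Thy1 were called, each in 1 of the 8 fits that left out 1 library. The pericyte genes summed to 4559 to 6613, 3727 to 10596 and 10798 to 17654 in the same order of groups, with 7 of 8 lower and Cspg4 and Pdgfrb called (in 2 and 1 of the 8 such fits), and the endothelial genes to 3002 to 4782, 452 to 2903 and 2417 to 4835. All 8 endothelial genes were lower in luminal than in basal tumors, with a median of -3.68 and 5 without overlap, and Cldn5 was called, in 0 of the 8 such fits. Of the 7 epithelial genes 5 were higher in luminal tumors with a median of 2.05, and Krt8 and Krt19 were called, in 5 and 0 of the 8 such fits and neither without the trend. The 5 immune genes summed to 25418 to 132113, 577 to 9371 and 7679 to 8121, and 5 of 5 were lower in luminal than in basal tumors with a median of -2.81, with 0 called by limma with or without the trend and 2 at an unadjusted p under 0.05. The 9 skeletal muscle genes summed to 78.5 to 1510 in basal tumors, 40.7 to 237 in luminal tumors and 188 to 217 in luminal domains. The part of such captured tissue in the values of the contractile genes was not tested.

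Of the 29 other smooth muscle genes 27 passed the filter, 24 lower and 3 higher in luminal tumors, with a median of -3.06. None was called by limma, 14 had an unadjusted p under 0.05, as had 17.9% of all genes tested (2982 of 16640), and 0 were called without the trend. Cald1, caldesmon, came nearest at an adjusted p of 0.0500105, with 8479, 5175 and 14084 in basal and 60.1, 6.33 and 1064 in luminal tumors, a log2 difference of -6.77 (SE 1.43). Jph2, junctophilin 2 of the calcium stores, was listed at 65.0, 85.7 and 111 in basal tumors and at 0 in all luminal tumors. The 6 genes of SRF and its partners that passed the filter were lower in luminal tumors and none was called, 1 at an unadjusted p under 0.05 and 0 without the trend, with Fhl2 at -3.79 (SE 0.97) and Srf itself at -1.00 (SE 0.75). Myocd, the muscle-restricted cofactor, was listed at 36.8, 1.05 and 2.08 in basal tumors and at 0 in every luminal tumor and luminal domain. Among the 12 non-muscle relatives 10 were lower with a median of -0.48 and none was called, 5 at an unadjusted p under 0.05 and 0 without the trend, with Vim, vimentin, at -5.28 (SE 1.43) and Cnn2 at -2.38 (SE 0.66).

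The 3 basal tumors did not share 1 contractile profile. CT111 held all 10 genes, with Des at 4368, Myh11 at 2110.2 and Acta2 at 12596 normalized counts. CT115 held 3.17 times as much Acta2 and 1.73 times as much Myl9 as CT111, but 0.0740 times as much Myh11, 0.122 times as much Actg2 and 0.146 times as much Mylk, with Des at 0.778. CT113 was below CT111 in all 10, from 1.71 times for Lmod1 and 2.94 times for Acta2 to 34.0 times for Des, 66.9 times for Actg2 and 102 times for Cnn1. Synpo2, a partner of actin in muscle, followed CT111 with 1871, 38.4 and 50.9, while Tpm2 followed CT115 with 18742, 4378 and 48867. The libraries thus differed in which contractile genes stood high, and the spread between them entered the SE of every difference from basal tumors. CT111 also stood apart in other markers, with immune genes summing to 132113 normalized counts, against 26392 in CT113 and 25418 in CT115, and epithelial genes to 123564, against 329707 and 302779. Their part in its contractile profile was not tested.

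**Figure D3:**
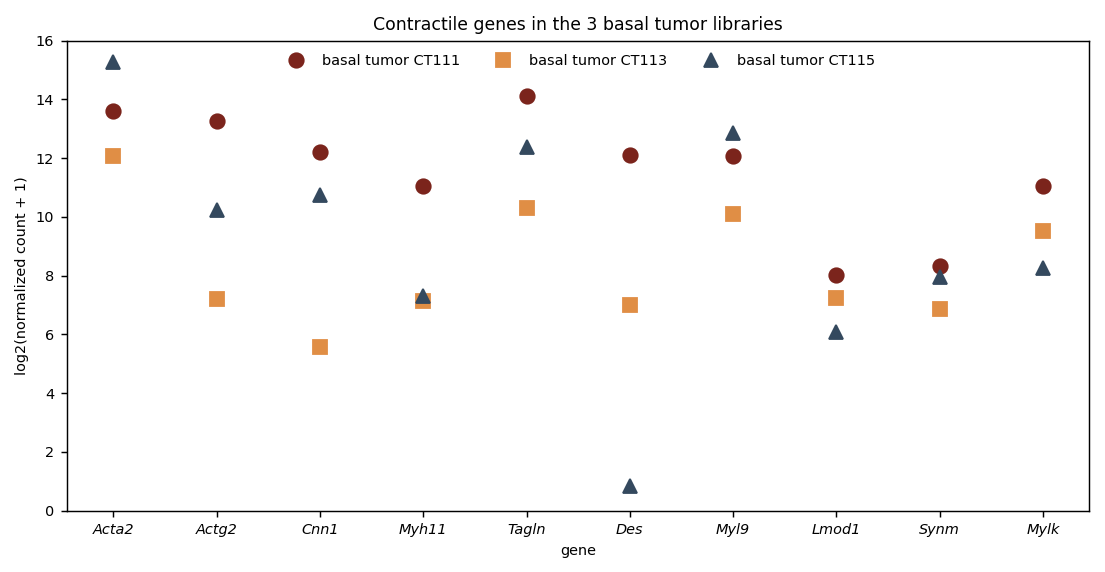
Values of the 10 genes in each of the 3 basal tumor libraries, as log2(normalized count + 1) on the vertical axis, with the genes along the horizontal axis and 1 symbol per library. Acta2 and Myl9 are highest in CT115, the other 8 genes are highest in CT111, and Des spans from 0.778 to 4368 normalized counts.

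The 10 genes also differed in how closely they followed each other. Over the 8 libraries of the tumor table, Pearson's r of a gene's log2 values with the mean of the 10 was 0.944 for Myh11, 0.918 for Tagln and 0.893 for Acta2, and it was 0.622 for Synm and 0.404 for Mylk. Acta2 and Myl9 had an r of 0.988, Acta2 and Des 0.458, and Acta2 and Mylk 0.0283. The mean of the 10 includes the gene itself, which tends to raise the r of a member with that mean. Genes outside the list are not part of the mean, so their r is not directly comparable. Those most like it were Dhx15 at 0.977, Mgp at 0.965, Hnrnpu at 0.964, Tdp2 at 0.959 and Rad21 at 0.955. Mgp, a matrix protein of vessels and cartilage, was at 46928, 5242 and 5504 in basal tumors and 112, 31.6 and 30.2 in luminal tumors. These libraries fall into basal tumors and mutant tissue, share 1 normalization, and number only 8, so the values describe likeness alone.

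Luminal tumors and luminal domains, both from mutants, were compared as well, a contrast that did not choose the genes although both groups entered the choice. Cnn1 (at 3.70 in 1 luminal tumor and 0 in the other 4 libraries) and Des (at 261 in 1 luminal domain and 0 in the others) passed the filter through basal tumors alone. The other 8 genes averaged lower in the 3 luminal tumors than in the 2 luminal domains, in libraries whose values are given above. Of these 8, Lmod1 was at 0 in all 3 luminal tumors. It passed the filter only through other groups and could differ in that direction only. The actin gene Acta2 differed by a log2 difference of -2.85 (SE 1.54), luminal tumor minus luminal domain, and the myosin genes Myl9 and Myh11 by -2.53 (SE 1.51) and -2.62 (SE 2.03). Tagln was at -1.87 (SE 1.21), Synm at -1.80 (SE 1.62) and Mylk at -1.36 (SE 1.35). None of the 10 was called, with adjusted p of 0.998 to 1 by limma, nor was any of the 16640 genes tested (0%). At an unadjusted p under 0.05 there were 1 of the 10 and 761 of all genes, and without the trend 0 of the 10 and 7 of all genes were called. Actg2, at -0.34 (SE 2.27), changed direction in 3 of the alternatives run. Tagln and Lmod1 did not overlap between the groups, and 10.7% of all genes tested were lower in luminal tumors without overlap. Lmod1 could stand apart in that direction only, so nothing is read from that count. The median of the 10 was -2.20, and -1.87 over the 7 genes above 0 in both groups, against -0.08 over all genes. The median of the 10 was -1.26 without CT132, -1.33 without CT128 and -3.02 without CT140, and with 1 library left out Acta2 ranged from -4.29 to -1.13 and Myh11 from -5.03 to -0.21. In the same fits Myl9 ranged from -3.66 to -0.88, Tagln from -2.51 to -0.85, Synm from -3.54 to -0.07 and Mylk from -2.76 to -0.46. With 3 against 2 libraries and an SE of 1.21 or more for each of these genes, differences of this size could not be told from the spread between libraries. Among the other lists 21 of 27 smooth muscle genes were lower in luminal tumors, among them Cald1 at -4.45 (SE 1.59), and 11 of 12 non-muscle relatives were, with Vim at -3.24 (SE 1.60). None of these was called, with or without the trend, and 2 of the 27 and 0 of the 12 had an unadjusted p under 0.05. Markers of other tissue were lower in luminal tumors as well, with 8 of 8 pericyte genes at a median of -4.60, 8 of 8 endothelial genes at -3.59, 8 of 9 fibroblast genes at -2.89 and 5 of 5 immune genes at -1.75. None of them was called, with or without the trend, and at an unadjusted p under 0.05 there were 5, 4, 2 and 1 in that order. Their part in the contractile values was not tested.

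The third luminal domain, CT148, was held by a table normalized with the basal tumors alone, in which domains are given in the order CT128, CT143 and CT148. All 10 genes averaged lower in the domains, by a median log2 difference of -3.57 against 0.01 over all genes tested, and 5 of them stood apart without overlap, namely Acta2, Actg2, Cnn1, Tagln and Myl9, where 12.8% of all genes tested did. Actg2, above 10 normalized counts only in domain CT143, and Cnn1, at 0 in all domains, passed the filter through basal tumors. These genes could stand apart in that direction only, so nothing is read from the count of 5. Acta2 had 13264, 4422 and 41514 in basal tumors and 1156, 989.7 and 1337 in domains, a difference of -3.54 (SE 0.71). The domains lay close together, whereas the basal tumors were spread widely.

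Tagln had 19400.2, 1368 and 5798 in basal tumors and 289, 398 and 189 in domains, a difference of -4.26 (SE 0.87). Myl9 had 5009, 1242 and 8561 in basal tumors and 242, 589 and 325 in domains, a difference of -3.39 (SE 0.72). In both genes each domain lay well under the lowest basal tumor. Actg2 was at 11962, 175 and 1442 in basal tumors and 0, 36.9 and 0 in domains, at -8.75 (SE 1.97), and Cnn1 at 5796, 55.8 and 2088 in basal tumors and at 0 in all domains. These 2 genes were the ones nearest to absent in the domains.

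Myh11 had 2195, 143 and 161 in basal tumors and 186, 5.67 and 21.8 in domains, a difference of -3.60 (SE 1.58), and domain CT128 lay above CT113 and CT115. Lmod1 had 271, 156 and 69.3 in basal tumors and 89.9, 16.2 and 98.2 in domains, a difference of -1.42 (SE 1.11). The domains CT128 and CT148 thus held Lmod1 at the level of the basal tumors, unlike luminal tumors, in which it was listed at 0. Des was at 4614, 133 and 0.813 in basal tumors and 280.2, 0 and 0 in domains, a difference of -3.99 (SE 3.18) with an SE nearly as large as itself.

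Synm had 336, 118 and 254 in basal tumors and 735, 66.3 and 125 in domains, a difference of -0.24 (SE 1.05). Mylk had 2228, 767 and 321 in basal tumors and 1119, 377 and 379.6 in domains, a difference of -0.59 (SE 0.79). Both overlapped fully and turned direction when single libraries were left out. By limma 3 of the 10 were called lower (Acta2, Cnn1 and Tagln, of which Cnn1 passed the filter through basal tumors alone and could differ in 1 direction only), where 0.824% of all genes tested were (123 of 14921), and 0 were called without CT111, CT115, CT128, CT143 or CT148 and 4 without CT113.

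The fibroblast genes were lower in domains as well, with sums of 49725 to 79119 in basal tumors and 5686 to 32341 in domains and 9 of 9 lower. Pericyte genes were lower in 7 of 8 with a median of -0.60, although their sums were 4940 to 7279 in basal tumors and 4997 to 20450 in domains, and 0 were called with or without the trend and 1 had an unadjusted p under 0.05. Endothelial genes were higher in 5 of 8 with a median of 0.03 and summed to 3401 to 5077 in basal tumors and 2792 to 5509.8 in domains. Immune genes, 2 higher and 3 lower, summed to 26519 to 139044 and 8300.4 to 15592, and epithelial genes to 130273 to 340809 and 533875 to 829173. Postn was called lower and Krt19 higher in domains, each in 1 of the 6 fits that left out 1 library and neither without the trend. Their part in the contractile values was not tested. Of 24 other smooth muscle genes tested 20 were lower in domains with a median of -1.01, and Cald1 fell from 7379, 4416 and 12119.5 to 1892, 1212 and 739, by a log2 difference of -2.62 (SE 0.48), adjusted p 0.0381 by limma. Of 12 non-muscle relatives 9 were lower with a median of -0.09, and Vim fell from 6811, 4925 and 8433 to 2005, 1349.6 and 2269, by -1.84 (SE 0.33), adjusted p 0.0371. Both calls held in only 1 of 6 fits that left out 1 library, the one without CT113, and were lost with no filter and without the trend. The SRF group was lower in 6 of 6 with none called, 1 at an unadjusted p under 0.05 and 0 without the trend, Fhl2 at -2.28 (SE 0.73) and Klf4 at -0.94 (SE 0.45).

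Within mixed lesions the upper, luminal domains were compared with the lower, basal-like domains, CT129, CT144 and CT149. Of the 8 genes that passed the filter 6 averaged higher in basal-like domains and 2 lower, with a median log2 difference, basal-like minus luminal, of 0.72 against 0.01 over all genes tested. None of the 8 stood apart without overlap, where 5.62% of all genes tested were higher without overlap. Without library CT129 the median was -0.05, and the differences of Acta2 and Tagln stayed above 0. The median was 0.13 without CT143, 0.41 without CT148, and 0.74 to 1.06 without CT128, CT144 or CT149.

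Acta2 had 1166, 1011 and 1365 in luminal domains and 3159, 1271 and 1890.0 in basal-like domains, a difference of 0.75 (SE 0.38). Tagln had 276, 386 and 183 and 2457, 559 and 281, a difference of 1.43 (SE 0.81). In both genes CT129 was the highest of the 6 libraries and the other basal-like domains lay near the luminal ones. In both, each basal-like domain also lay above the luminal domain with the library number just before its own. The other genes tested did not show this in every such case. The labels do not say whether domains with adjacent numbers came from the same lesion, so this is a description only. Myl9 had 244, 600.4 and 330.3 in luminal and 1659, 418 and 295 in basal-like domains, at 0.69 (SE 0.73). Myh11 had 192, 5.93 and 22.8 and 758, 48.5 and 8.13, at 1.14 (SE 1.87). Without CT129 these differences were 0.40 for Acta2, 0.56 for Tagln, -0.05 for Myl9 and -0.58 for Myh11.

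Actg2 was listed at 0, 36.7 and 0 in luminal and 609, 1.89 and 4.84 in basal-like domains, so that CT129 held 323 times as much as CT144. Cnn1 was at 0 in all but CT129, where it was at 59.2, and neither gene passed the filter. Lmod1 had 91.3, 16.7 and 101 in luminal and 161, 2.74 and 0 in basal-like domains, at -2.70 (SE 1.95), the lowest of the 8. It was lower in CT144 and CT149 than in any luminal domain, although CT129 held the most of all 6. Lmod1 was above 10 normalized counts in every luminal domain but only in CT129 of the basal-like domains. It passed the filter through the luminal domains, so nothing is read from its rank.

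Des had 287, 0 and 0 in luminal and 152, 48.1 and 0 in basal-like domains, at 1.57 (SE 2.72), with 3 of the 6 libraries at 0. Synm had 729, 66.6 and 126 and 484, 109 and 315, at 0.47 (SE 1.03), and Mylk 1139, 388 and 391 and 1272, 434 and 178, at -0.27 (SE 0.79). Synm and Mylk varied as much within the domains as between them. With 1 library left out Synm ranged from -0.25 to 1.47 and Mylk from -1.00 to 0.41, so that both turned direction. By limma 0 of the 8 and 0 of 14874 genes (0%) were called, with 0 of the 8 and 757 genes at an unadjusted p under 0.05, and without the trend 0 of the 8 and 20 genes.

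**Figure D4:**
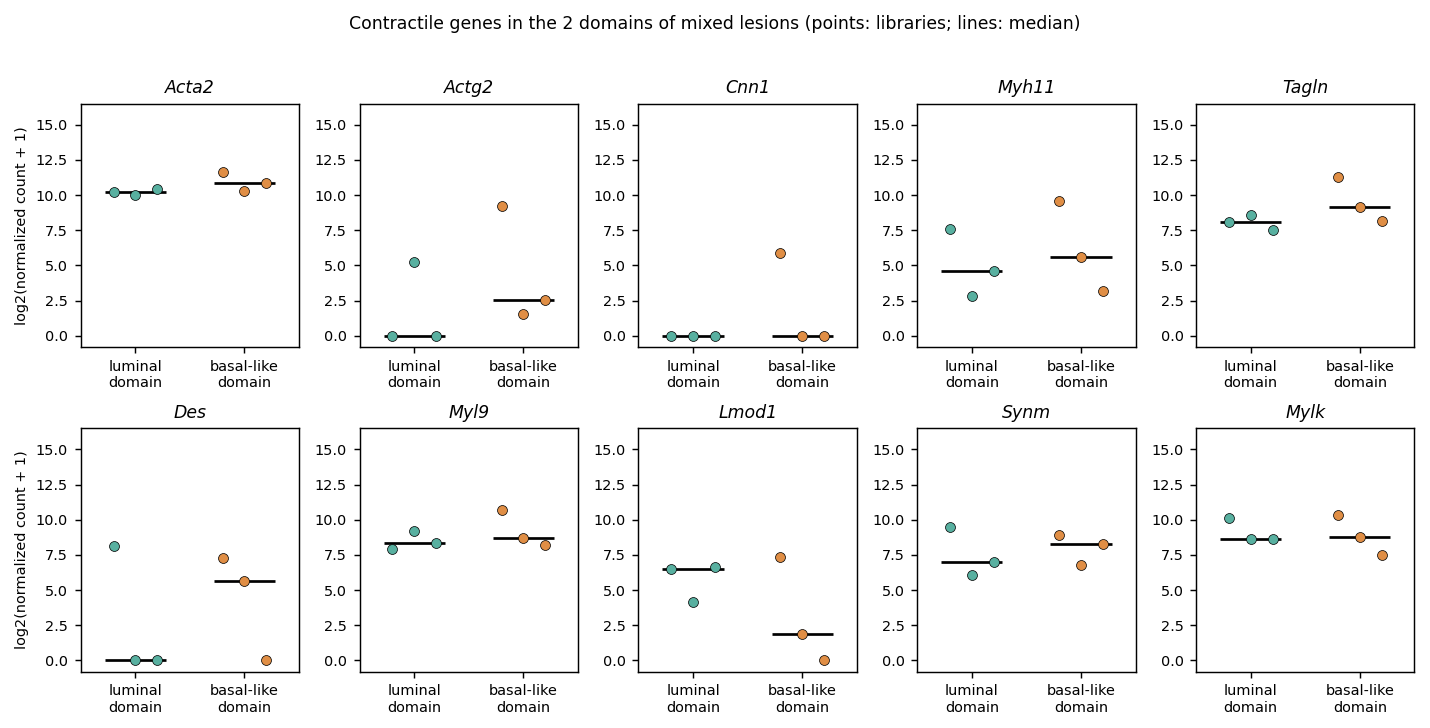
Normalized counts of the 10 genes in mixed lesions, as log2(normalized count + 1) on the vertical axis, for 3 luminal and 3 basal-like domains (points) with the median of each group (lines). The groups overlap in all 8 genes that passed the filter, and CT129, with Tagln at 2457, gives the highest basal-like point in all 10 genes.

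Markers of other tissue differed between these domains too. All 9 fibroblast genes tested were higher in basal-like domains, with a median log2 difference of 1.77 and 2 of them without overlap. By limma 0 of the 9 were called, with or without the trend, and 1 had an unadjusted p under 0.05. They summed to 108249 normalized counts in CT129, 17862 in CT144 and 15252 in CT149, and to 33396, 6159 and 5924 in the luminal domains CT128, CT143 and CT148. In CT129 the endothelial genes summed to 9060.05 and the skeletal muscle genes to 624, the highest of the 3 basal-like domains. CT129 was also the highest of them in immune genes (19765, against 4194 and 13860 in CT144 and CT149) and pericyte genes (15921, against 8290 and 3802) and the lowest in epithelial genes (466504, against 641890 and 476369). The part of these in the contractile values was not tested. Among 22 other smooth muscle genes tested 14 were higher and 8 lower in basal-like domains, Pdlim3, a muscle LIM protein, at 3.24 (SE 2.33) and Rbpms2, an RNA-binding protein of smooth muscle, at 2.90 (SE 1.62). Of the 12 non-muscle relatives 4 were higher and 8 lower, and of the 6 SRF genes 5 were higher. None of these lists had a call, with or without the trend, and at an unadjusted p under 0.05 there were 2 of the 22 and 0 of the other lists. In these lists Cnn2 was at 0.75 (SE 0.36) and Mrtfa at 0.97 (SE 0.63).

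**Figure D5:**
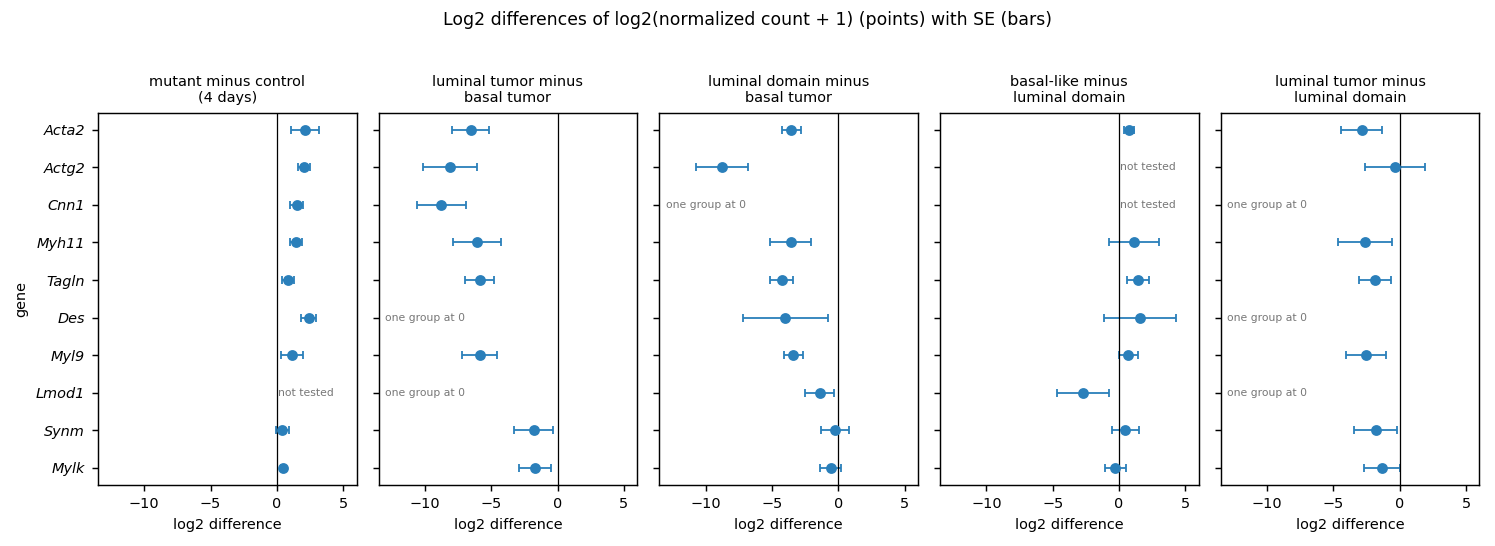
Log2 differences of the 10 genes (points) with their SE (bars) in the 5 comparisons, on the scale of log2(normalized count + 1). At 4 days the points of the 9 genes tested lie above 0, in both comparisons with basal tumors they lie below 0, and genes at 0 in every library of a group carry no point.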

How the data were processed

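Deposited tables of normalized counts (unit signal) were used. The authors demultiplexed reads with bcl2fastq 2.20, quantified them with kallisto 0.44.0, summed transcripts to genes with tximport and divided by gene-wise DESeq2 1.18 factors, 1 table per comparison. The libraries were made with SMART-Seq v4 and Nextera XT. The transcript index is not given in the sources used here. Whole reads were not recovered, so the depth reached in each library is unknown (the methods give a target only) and no counting intervals are given. Values were compared within a table. The deposited log2 fold changes and p-values are the authors' own comparisons and were not used, and 8 columns could not be mapped to samples and are not analysed here.

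In R 4.3.3, limma 3.58.1 (lmFit, eBayes with a trend) was run on log2(normalized count + 1) for genes with at least 10 normalized counts in as many libraries as the smaller group. The tumor fit held all 8 libraries of its table. p was adjusted by Benjamini-Hochberg at 0.05 over all genes tested, and the fit was tested on simulated data. Array weights used statmod 1.5.0. Values at low levels are understated on this scale. The members and lists were chosen with earlier results of these data known. Besides the members, the genes named are, for the smooth muscle, SRF and non-muscle lists, up to 4 called per list or, with none called, up to 2 with the largest differences, and the 5 genes most like the members' mean. Myocd, Synpo2, Tpm2 in basal tumors and the markers were chosen after their values were seen. Figures used Python 3.11.15, pandas 2.3.3 and matplotlib 3.10.9. Of each member's 31-base words, at most 1.39% (Acta2, shared mostly with Actg1), 1.21% (Actg2) and 1.04% (Myh11) occur in another gene, and reads there could be split. Gene positions are from GENCODE M21 on GRCm38 and were not used in any test. Alternatives were other pseudocounts, filters, scalings, variance models and libraries left out.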

Additional observations from a re-analysis of the deposited data

Results flagged for a closer look

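At 4 days, each gene was screened in controls and in mutants for a library far from the others of its group, in 20 checks of 4 or 5 libraries. The nominal rate of marks by chance is 1 in 20 checks. It need not hold here, because the checks share the same libraries and used normalized counts that were not put on the log2 scale. Control CT067 stood above the other 3 controls for Acta2, at 769 normalized counts with a gap to the next of 0.988 of the group's range, for Myl9, at 179 with 0.965, and for Tagln, at 166 with 0.864. Mutant CT070 stood above the other 4 mutants for Acta2, at 1814 with 0.792, and for Tagln, at 505 with 0.813. Control CT067 also had the highest fibroblast sum of the controls, at 89630 normalized counts, whereas mutant CT070, at 85455, was exceeded in 2 of the other mutants. The cause was not tested.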

How the results depend on the processing

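Every alternative kept the direction of the median of the members in the 5 comparisons, except where CT129 was left out (-0.05). With other processing at 4 days the 467 genes called became 269 without the trend, 1054 with array weights, 147 in the smaller table and 84 to 596 with 1 library left out. The members called, 0, became 1 with a pseudocount of 5 or a filter of 50 normalized counts, 2 with array weights and 0 to 1 with 1 library left out. In luminal against basal tumors the 288 genes called became 52 with no filter, 128 without the trend, 492 with luminal tumors and domains pooled, 49 with only the 6 libraries and 3 to 813 with 1 library left out. The 3 members called became 0 with no filter or only the 6 libraries, 1 without the trend, 5 with array weights and 0 to 5 with 1 library left out. In luminal domains against basal tumors the 377 genes called became 144 with no filter, 107 without the trend and 0 to 518 with 1 library left out, and the 3 members 0 with no filter or without the trend and 0 to 4. In the mixed lesions 0 became 20 without the trend, and in luminal tumors against luminal domains 0 became 7, and 0 to 1 with 1 library left out. The cause was not tested. Quantile normalization split the 4-day calls into 270 higher and 287 lower, against 290 and 177, and moved the median of all genes in luminal against basal tumors from -0.14 to 0.03. Alternatives for called genes of the lists were chosen after seeing the data. No paired analysis was possible because the columns carry library numbers, not the replicate numbers of the labels. Few libraries, an unknown depth and 0 values in captured tissue limit all values at low levels.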
